A study of Mus musculus with 12 samples.

Results

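A named set of 10 genes of the PGC-1 regulatory circuit was examined in subcutaneous white adipose tissue (scWAT), its members taken from the count tables by gene symbol. They are the coactivators Ppargc1a, Ppargc1b and Pprc1, the PGC-1 and ERR regulator Perm1, the receptors Esrra and Esrrg, the nuclear respiratory factors Nrf1, Gabpa and Gabpb1, and the corepressor Nrip1. All 10 were found among the 55401 gene identifiers and all 10 were among the 16540 genes tested. RNA was sequenced in 12 libraries from the scWAT of female mice, 16 weeks old at the start, with 3 libraries in each of 4 groups. Jmjd1a +/+ (wild-type) and Jmjd1a HY/HY mice were each studied at 30°C and at 8°C, where they were kept for 1 week after 1 week at 30°C. HY is the H1122Y replacement, which per the study leaves the histone demethylase JMJD1A without its activity. It was introduced by gene editing into C57BL/6J eggs, so every cell of these mice carries it. The mutant (HY/HY) female mice came from 1 line, and each animal was caged alone.

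PGC-1 proteins do not bind DNA themselves. They are recruited by DNA-binding factors, among them the estrogen-related receptors, NRF1 and the GABP complex, and raise transcription of genes for mitochondrial respiration. In brown and beige fat, adrenergic signalling in the cold is known to induce Ppargc1a, and NRIP1 (RIP140) is known as a corepressor that works on many of the same genes in the opposite direction.

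The libraries held between 13592629 and 26352081 read pairs counted on the sense strand of genes, and all 6 libraries at 8°C were smaller than the 6 at 30°C. Levels are given as CPM (read counts scaled to a common library size) with TMM, a factor that sets the bulk of genes level between libraries. Kdm3a, the gene that encodes JMJD1A, had a level at 30°C of 49.3 ± 11.2 CPM for wild-type and 45.5 ± 7.68 CPM for HY/HY (SD, n = 3 each), and a level does not check a replacement of 1 residue. Replicate 2 of the wild-type mice at 30°C stood apart by skeletal muscle RNA: the summed level of 8 muscle markers was 1306 CPM there and 3.64 to 21.6 CPM in the other 11 libraries. In this library Acta1 (skeletal actin) was at 285 CPM, Ckm (muscle creatine kinase) at 197 CPM and Myh4 (a fast myosin) at 275 CPM. Ppargc1a and Perm1 are also muscle genes, so values without this library are given where it moved their differences. The tissue held its white adipocyte markers in every library, with a summed level of 14414 to 41769 CPM over 8 genes, and 8 mammary epithelium markers summed to 536 to 3725 CPM.

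Start sites of 9 of the 10 genes have a promoter window from RefSeq (GRCm38.p6, the assembly of mm10) with 250 bases before and 50 after the start. These windows were searched on both strands for the binding letters of the circuit's own factors. None of the windows of the 9 genes held the ERR element TCAAGGTCA, the NRF1 element GCGCATGCG, the GABP element CCGGAAGT or the cAMP response element TGACGTCA. Of all 32851 windows, 0.423%, 1.75%, 3.89% and 1.79% held them, in that order. A second search with shorter letters, each of them part of the longer run and chosen after the first search, found a single member for each. The ERR letters AAGGTCA were in the window of Perm1 and in 4.72% of all windows, the NRF1 letters GCGCATG in that of Esrra and in 3.91%, the GABP letters CGGAAG in that of Gabpa and in 16.9%, and the cAMP letters TGACGT in that of Ppargc1a and in 7.51%. Of the nuclear genes for respiratory chain subunits, 64 had a window, and 43.8% of these 64 held the GABP letters, 20.3% the NRF1 letters and 12.5% the ERR letters, against 18.8%, 4.41% and 5.38% of all 27025 genes. The stretches with these letters in capitals are printed because they are the matches among the windows of the 9 genes. Each run of shorter letters was in 11.1% of the 9 genes. Of all 27025 genes, 5.38% held the ERR, 4.41% the NRF1, 18.8% the GABP and 8.37% the cAMP letters. Whether the matches bear on the response to cold was not tested. All the stretches are read 5′ to 3′ on the strand of the gene and end at or before the base preceding the start used. Ppargc1a and Perm1 have 1 window each, which lies inside the gene's RefSeq span (chr5:51454249-52115853 and chr4:156203262-156221307). It does not reach the end of the span where the gene begins, so a start there was not searched.
Ppargc1a, chr5:51567726-51567825, minus strand, with the cAMP letters in capitals: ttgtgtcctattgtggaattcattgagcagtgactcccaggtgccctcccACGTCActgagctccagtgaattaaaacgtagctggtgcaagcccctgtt
Perm1, chr4:156215677-156215776, plus strand, with the ERR letters in capitals: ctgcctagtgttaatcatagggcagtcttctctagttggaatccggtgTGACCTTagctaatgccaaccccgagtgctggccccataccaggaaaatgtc
Esrra, chr19:6921809-6921908, minus strand, with the NRF1 letters in capitals: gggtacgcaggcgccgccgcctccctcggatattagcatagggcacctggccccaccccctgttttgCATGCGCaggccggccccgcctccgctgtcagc
Gabpa, chr16:84834977-84835123, plus strand, with the GABP letters in capitals: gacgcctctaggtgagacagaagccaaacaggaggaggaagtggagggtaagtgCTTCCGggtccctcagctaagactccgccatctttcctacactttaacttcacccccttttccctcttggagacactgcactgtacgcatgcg
In each of these the letters lie on the reverse strand. The Gabpa stretch is the whole interval to a start site of Atp5j, a gene for a subunit of ATP synthase that is read in the opposite direction. The start sites lie 148 bases apart, with the 147 printed bases between them. A match describes the letters in a window and says nothing of binding in these mice.

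In wild-type mice, cold raised 5 of the 10 genes and lowered 1. The call required an adjusted p below 0.05 (edgeR's quasi-likelihood test, Benjamini-Hochberg adjustment over the 16540 genes) with a fold change above 1.5 or below 0.67. Of all genes tested, 10.3% passed as higher and 6.93% as lower. The 5 that rose were Ppargc1a, Ppargc1b, Perm1, Esrra and Gabpa, and the 1 that fell was Pprc1. The median log2 fold change was 0.89 over the 10 genes and -0.07 over all genes tested. Libraries of the groups compared did not overlap for 7 of the 10 genes and for 7182 of the 16540. By cold in HY/HY mice this held for 2 of the 10 and for 3032 of all genes. Between genotypes it held for 6 of the 10 and 5855 of all genes at 8°C, and for 1 and 3024 at 30°C. In bulk tissue, a change in the number of cells of a type and a change in RNA per cell cannot be told apart.

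Ppargc1a (chr5:51454249-52115853) encodes PGC-1α, the coactivator best known for cold induction. In the 3 wild-type libraries at 30°C it was at 3.44, 5.12 and 3.35 CPM, and at 8°C at 17.6, 35.9 and 25.7 CPM. The groups did not overlap, and the highest value at 30°C belonged to the library with muscle RNA. The rise was 6.59-fold, a log2 fold change of 2.72 ± 0.35 (SE, edgeR adjusted p = 0.000298), and 2.96 ± 0.41 without that library. The HY/HY libraries had 4.61, 7.23 and 10.2 CPM at 30°C and at 8.48, 14.6 and 8.44 CPM at 8°C. These groups overlapped, and the log2 fold change of 0.53 ± 0.34 did not pass the test (edgeR adjusted p = 0.500).

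Ppargc1b encodes PGC-1β, which shares much of its target range with PGC-1α and is known to keep basal mitochondrial gene expression. Wild-type libraries held 6.48, 4.58 and 10.2 CPM at 30°C and 19.7, 19.2 and 21.6 CPM at 8°C. It rose 2.87-fold (log2 fold change 1.52 ± 0.26, edgeR adjusted p = 0.00180), with no overlap. HY/HY libraries held 5.15, 4.03 and 4.31 CPM at 30°C and 5.57, 7.63 and 4.63 CPM at 8°C, so the mutant mice in the cold lay within the range of wild-type mice at 30°C. Their log2 fold change by cold was 0.41 ± 0.27 (edgeR adjusted p = 0.515).

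Perm1 (chr4:156203262-156221307), a striated muscle factor induced by PGC-1 and ERR, had the largest fold among the 10 on the sense strand. It was close to the floor at 30°C, with 0.589, 1.66 and 0.425 CPM from 13, 46 and 8 read pairs in wild-type mice. At 8°C it was at 23.0, 24.7 and 23.2 CPM from 309, 328 and 361 read pairs. The log2 fold change was 4.66 ± 0.52 (25.2-fold, edgeR adjusted p = 0.000114), and 5.51 ± 0.55 without the library that held muscle RNA. At 8°C the muscle markers summed to 3.64 to 11.9 CPM in wild-type mice. Perm1 in the mutant group was at 0.271, 0.689 and 0.364 CPM at 30°C and at 2.65, 4.81 and 1.14 CPM at 8°C. All 3 cold libraries lay above the 3 at 30°C, and the log2 fold change was 2.67 ± 0.57 with an edgeR adjusted p of 0.0877, so it was not called. DESeq2 called it (log2 fold change 2.70, adjusted p = 0.000279), as did edgeR with no filter on low counts (adjusted p = 0.0104), with the replicate block (adjusted p = 0.0246) and without HY/HY replicate 3 at 30°C (adjusted p = 0.0474).

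**Figure D1:**
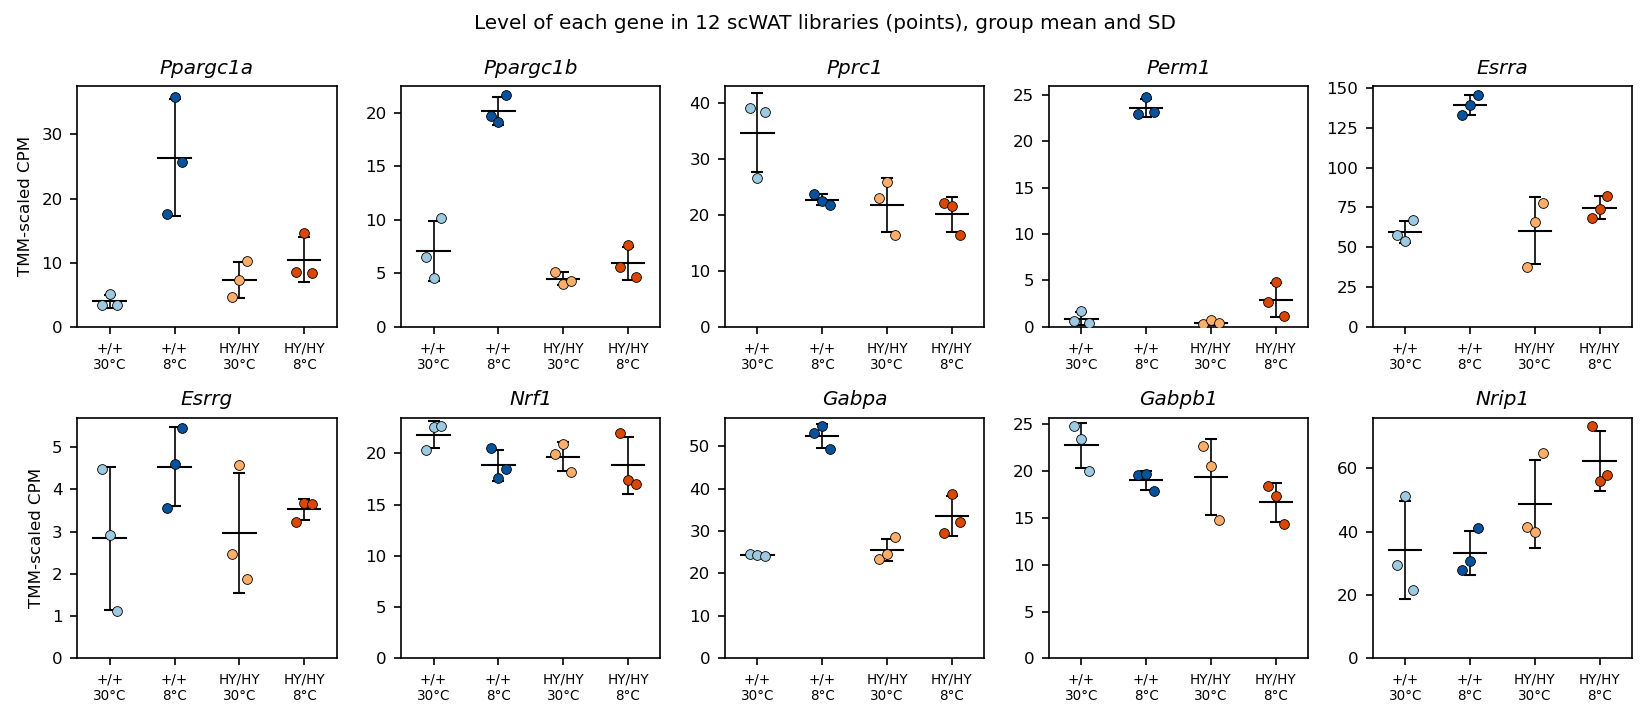
Level of each of the 10 genes (TMM-scaled CPM, linear axes that start at 0) in each of the 12 libraries, by genotype and temperature, with a horizontal line at the group mean and the SD as the error bar (n = 3). Ppargc1a, Ppargc1b, Perm1, Esrra and Gabpa were highest in all 3 wild-type libraries at 8°C, while Nrf1 stayed between 17.0 and 22.6 CPM in all 12.

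Perm1 also carried reads on the opposite strand. Antisense read pairs numbered 142, 301 and 91 in wild-type mice at 30°C and 52, 41 and 34 at 8°C, and in HY/HY mice 93, 119 and 34 at 30°C and 38, 60 and 25 at 8°C. At 30°C they outnumbered the sense pairs in all 6 libraries, and at 8°C in wild-type mice the sense pairs outnumbered them in all 3. The RefSeq span of Perm1 overlaps the noncoding gene AW011738 (chr4:156203284-156206028) and the pseudogene Gm46877 (chr4:156213021-156215050). The source of the antisense reads was not tested. With both strands counted together, the rise by cold in wild-type mice was 1.69 ± 0.37 on the log2 scale (edgeR adjusted p = 0.00710), in place of 4.66, and below that of Ppargc1a (2.72 ± 0.35). In HY/HY mice it was 0.65 ± 0.39 (adjusted p = 0.468), and between genotypes at 8°C -2.25 ± 0.38 (adjusted p = 0.00607).

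**Figure D2:**
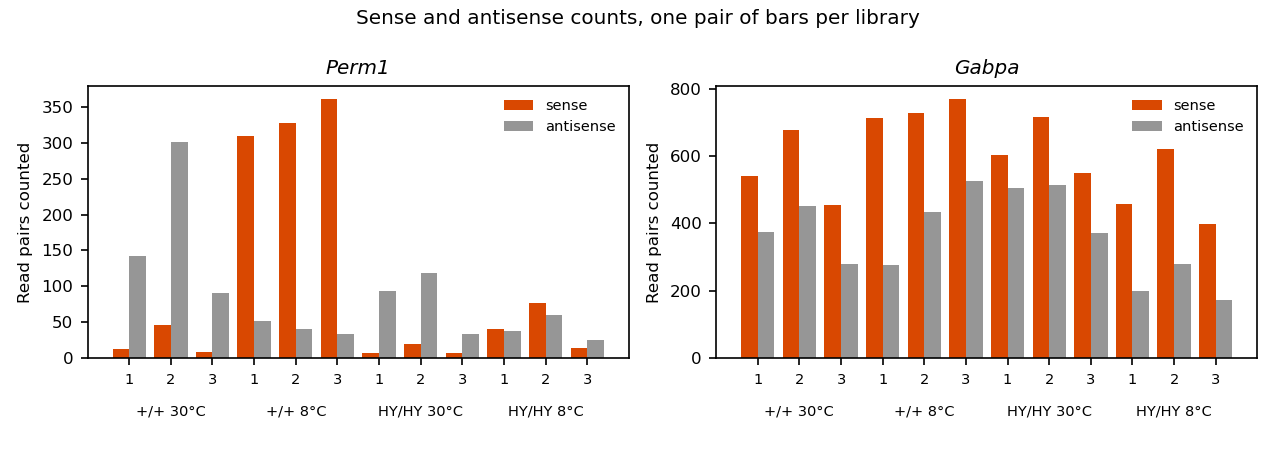
Read pairs counted on the sense and the antisense strand of Perm1 and Gabpa in each library (linear axes from 0, 1 pair of bars per library, numbered by replicate). Antisense bars exceed sense bars for Perm1 in all 6 libraries at 30°C, and sense bars exceed antisense bars for Gabpa in all 12.

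Pprc1 (chr19:46056526-46072909) encodes PRC, the family member tied to growth signals rather than to cold. It moved in the other direction: wild-type libraries held 39.2, 26.6 and 38.4 CPM at 30°C and 23.8, 22.6 and 21.9 CPM at 8°C. The groups did not overlap, and the fall was 0.61 on the log2 scale (0.655-fold, SE 0.19, edgeR adjusted p = 0.0369). Mammary epithelium markers were also lower in the cold in these libraries, at 2067 to 3725 CPM summed at 30°C and 1388 to 1527 CPM at 8°C, with 2 of 7 tested called lower and a median log2 fold change of -1.01. The Pprc1 call is close to its limits. DESeq2 gave -0.58, past the adjusted p but not the fold limit. It was lost without wild-type replicate 1 or 3 at 30°C, without any 1 of the 3 wild-type libraries at 8°C and without HY/HY replicate 1 or 2 at 8°C, with edgeR adjusted p of up to 0.118. HY/HY mice had 23.0, 25.9 and 16.5 CPM at 30°C and 22.2, 21.7 and 16.5 CPM at 8°C (log2 fold change -0.11 ± 0.19, edgeR adjusted p = 0.822). At 30°C all 3 mutant libraries lay below the 3 wild-type libraries, with a log2 difference of -0.67 ± 0.19 that edgeR did not call (adjusted p = 0.0981) and DESeq2 did (-0.66, adjusted p = 0.0345). Mammary epithelium markers differed the same way at 30°C, with 536 to 1488 CPM in mutant mice, and their part in the Pprc1 values, by cold and by genotype, was not tested.

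Of the estrogen-related receptors, orphan nuclear receptors that drive respiratory genes without a known natural hormone, Esrra (ERRα, chr19:6910977-6922048) rose and Esrrg (ERRγ, chr1:187608510-188214885) did not pass. Esrra was at 58.0, 54.0 and 67.4 CPM in wild-type mice at 30°C and at 133, 139 and 146 CPM at 8°C. Its rise was 2.33-fold (log2 fold change 1.22 ± 0.21, edgeR adjusted p = 0.00192), and the groups did not overlap. Among the mutant libraries Esrra was at 37.3, 65.7 and 78.0 CPM at 30°C and at 68.3, 73.7 and 82.3 CPM at 8°C (log2 fold change 0.31 ± 0.21, edgeR adjusted p = 0.523). The spread among mutant mice at 30°C, with an SD of 20.9 CPM, was larger than their mean difference by cold. Esrrg stayed between 1.12 and 5.45 CPM in all 12 libraries, and its log2 fold change in wild-type mice was 0.67 ± 0.43 (edgeR adjusted p = 0.272). There were 0.0494 ± 0.0307 Esrrg counts for each Esrra count in wild-type mice at 30°C and 0.0324 ± 0.00535 at 8°C.

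Of the nuclear respiratory factors, Gabpa rose and Gabpb1 and Nrf1 did not pass. Gabpa (chr16:84834891-84863783), the DNA-binding subunit of GABP, was at 24.5, 24.5 and 24.1 CPM in wild-type mice at 30°C and at 53.0, 54.8 and 49.3 CPM at 8°C. Its SD of 0.196 CPM at 30°C was the smallest of the 10 genes in that group, and it rose 2.15-fold (log2 fold change 1.10 ± 0.12, edgeR adjusted p = 7.83e-05). The mutant libraries had 23.4, 24.6 and 28.5 CPM at 30°C and 29.6, 38.8 and 32.2 CPM at 8°C, with no overlap and a log2 fold change of 0.40 ± 0.12 that was not called (edgeR adjusted p = 0.165). Gabpb1 (chr2:126628907-126684435), the partner subunit that carries the activation domain, was at 24.8, 23.4 and 20.0 CPM at 30°C and 19.5, 19.7 and 17.8 CPM at 8°C in wild-type mice. All 3 cold libraries were lower, but the log2 fold change of -0.26 ± 0.16 did not pass (edgeR adjusted p = 0.255). With library totals in place of TMM it did (-0.60, adjusted p = 0.0492). That scaling moves the median of all genes from -0.07 to -0.41, and its calls by cold in wild-type mice are 1057 higher and 4144 lower in place of 1707 and 1147, and the part of that shift in the Gabpb1 value was not tested. Nrf1 (chr6:30047985-30153458), which binds as a homodimer to its own element, differed by -0.21 ± 0.12 on the log2 scale with cold in wild-type mice (edgeR adjusted p = 0.233) and of -0.06 ± 0.12 in mutant mice (adjusted p = 0.849).

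Because Gabpa and Gabpb1 code for 2 subunits of a complex, their ratio was taken within each library, where no scaling enters. There were 0.987, 1.04 and 1.20 Gabpa counts for each Gabpb1 count in wild-type mice at 30°C and 2.71, 2.78 and 2.77 at 8°C. Mutant libraries had 1.03, 1.20 and 1.93 at 30°C and 1.61, 2.24 and 2.24 at 8°C. The wild-type groups did not overlap between temperatures and the mutant groups did. At 8°C all wild-type ratios were above all mutant ratios (2.75 ± 0.0371 against 2.03 ± 0.365, SD, n = 3 each). An exact permutation test of 3 against 3 cannot go below p = 0.1 (two-sided), and it gave that value by cold in wild-type mice and by genotype at 8°C, and p = 0.2 by cold in mutant mice.

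Atp5j, which shares the printed interval with Gabpa and was chosen after its values were seen, was at 204, 228 and 261 CPM in the 30°C libraries of wild-type mice and at 233, 276 and 281 CPM in those at 8°C. The log2 difference by cold there was 0.19 ± 0.13 (edgeR adjusted p = 0.326), against 1.10 for Gabpa in the same libraries. RefSeq places the genes across each other on opposite strands, and the antisense pairs of Gabpa, 173 to 525 in a library, were fewer than the sense pairs in every library. In the column over both strands, Gabpa counts were slightly below the sense counts in every library. In wild-type replicate 1 at 30°C they were 533 against 540, with 374 antisense pairs. The antisense pairs were thus not added there. Gabpa stayed called in wild-type mice with that column, which cannot show what those pairs would do to the call.

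Nrip1 (chr16:76287403-76373827) was the 1 gene of the 10 with a higher fitted level in HY/HY than in wild-type mice at 8°C. The wild-type libraries had 29.4, 51.4 and 21.6 CPM at 30°C and 27.8, 30.8 and 41.1 CPM at 8°C. The mutant libraries had 41.4, 39.9 and 64.8 CPM at 30°C and 73.3, 56.1 and 57.9 CPM at 8°C. Cold gave -0.04 ± 0.29 on the log2 scale in wild-type mice (edgeR adjusted p = 0.936) and 0.38 ± 0.25 without the library with muscle RNA, which had the highest Nrip1 level of its group. At 8°C every mutant library lay above every wild-type library, a log2 difference of 0.91 ± 0.29 that was not called (edgeR adjusted p = 0.0856). It was called by DESeq2 (0.89, adjusted p = 0.0374), with only the 6 libraries at 8°C fitted (0.92, adjusted p = 0.00680), with library totals (1.05, adjusted p = 0.0489), with no filter (0.91, adjusted p = 0.0377) and without wild-type replicate 2 or 3 at 30°C (adjusted p = 0.0321 and 0.0498). Nrip1 was also higher in mutant mice at 30°C, by 0.51 ± 0.29 (edgeR adjusted p = 0.379), not called. Without the library with muscle RNA that difference was 0.93 ± 0.25 (adjusted p = 0.145). The difference between the cold responses was 0.40 ± 0.41 (adjusted p = 0.692), and -0.02 ± 0.33 without that library (adjusted p = 0.988).

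At 8°C, 5 of the 10 genes were lower in mutant than in wild-type animals, and edgeR called none higher (6 genes in either direction at an unadjusted p under 0.05), while DESeq2 called 1, Nrip1, higher. Of all genes tested, 4.42% were called lower and 1.51% higher in that comparison. They were the 5 genes named above as raised by cold in wild-type mice, and both comparisons use the same wild-type libraries at 8°C. Perm1 had the largest difference, -3.02 ± 0.48 on the log2 scale (0.124-fold, edgeR adjusted p = 0.00406). Ppargc1b followed with -1.76 ± 0.27 (0.296-fold, adjusted p = 0.00331), Ppargc1a with -1.33 ± 0.34 (0.399-fold, adjusted p = 0.0346), Esrra with -0.90 ± 0.21 (0.536-fold, adjusted p = 0.0252) and Gabpa with -0.64 ± 0.12 (0.641-fold, adjusted p = 0.00767). In each of the 5, every mutant library at 8°C lay below every wild-type library at 8°C. Of all 16540 genes tested, 5855 had no overlap, in either direction, in that comparison. The differences of Pprc1, Esrrg, Nrf1 and Gabpb1 lay between -0.37 (Esrrg) and -0.00044 (Nrf1) on the log2 scale, and none passed.

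The calls of Perm1 and Ppargc1b at 8°C held without any 1 of the 12 libraries. That of Ppargc1a was lost without wild-type replicate 2 or 3 at 8°C or HY/HY replicate 1 or 3 at 8°C (edgeR adjusted p from 0.0950 to 0.148), and that of Esrra without any 1 of the 6 libraries at 8°C (adjusted p from 0.0629 to 0.105). That of Gabpa was lost without HY/HY replicate 1 at 8°C, where the log2 difference of -0.56 missed the fold limit, and with library totals, where that of -0.50 missed it too (adjusted p = 0.0325). Without HY/HY replicate 1 at 8°C only 2 genes were called, against 3 without wild-type replicate 2 or 3 or HY/HY replicate 3 at 8°C. Thermogenic adipocyte markers summed over 8 genes to 8366 to 9283 CPM in wild-type and 561 to 1685 CPM in mutant mice at 8°C, with 6 of the 8 called lower in the mutant. Ucp1, which uncouples respiration, rose by 11.41 ± 1.10 in wild-type and 8.87 ± 1.02 in mutant mice with cold (log2 scale). Its mean at 30°C was low, at 2.02 and 1.23 CPM. The difference between its cold responses, -2.55 ± 1.14, did not pass (edgeR adjusted p = 0.321). Macrophage markers summed to 164 to 170 CPM in wild-type and 258 to 356 CPM in mutant mice, with 3 of 8 called higher. Their part in these differences was not tested.

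**Figure D3:**
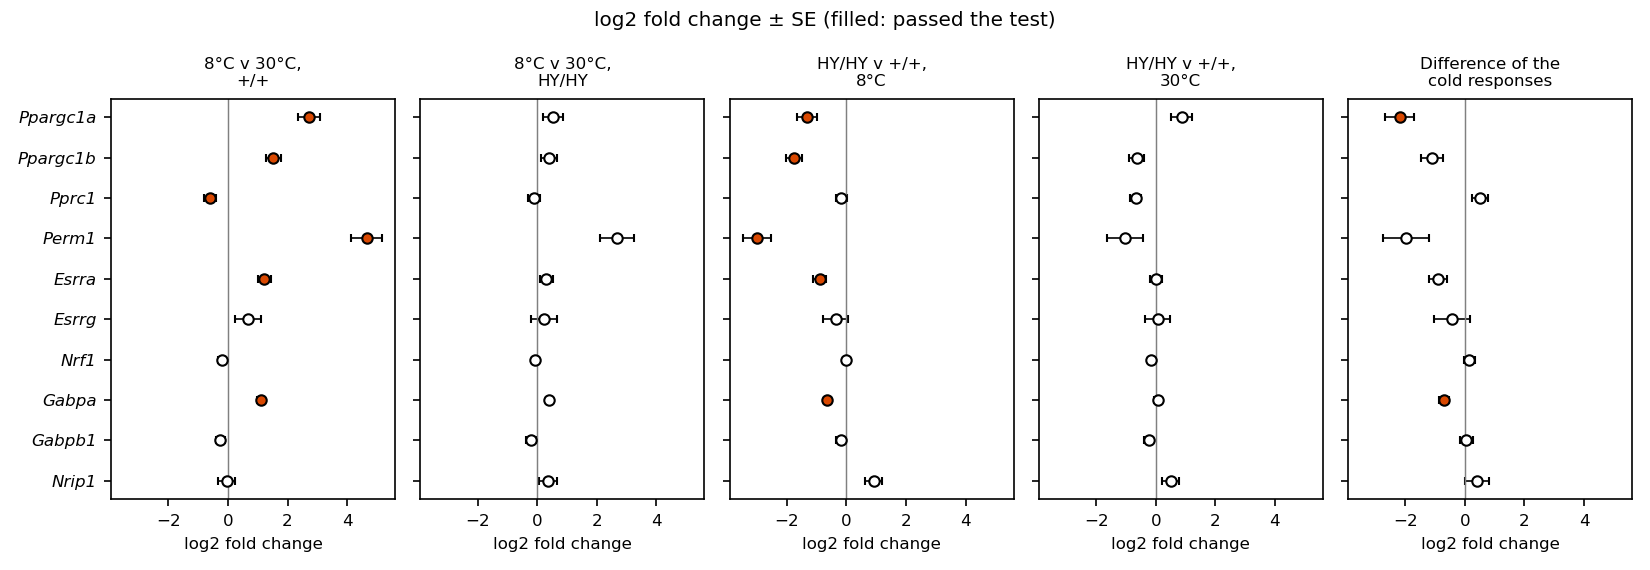
log2 fold change with its SE of the 10 genes in each of the 5 comparisons (edgeR, 12 libraries, shared linear axis). Filled points passed the test: 6 in wild-type mice by cold, 5 at 8°C between genotypes, 2 in the difference between the cold responses, and none in the other panels.

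At 30°C the genotypes differed in none of the 10 genes by edgeR, with 3 genes at an unadjusted p under 0.05 and 1, Pprc1, called by DESeq2. Of all genes tested, 0.562% were called higher and 0.441% lower. Ppargc1a and Ppargc1b had differences of opposite sign, 0.87 ± 0.35 (edgeR adjusted p = 0.211) and -0.64 ± 0.26 (adjusted p = 0.221). Without the library that held muscle RNA, the difference at 30°C was 1.10 ± 0.40 for Ppargc1a (adjusted p = 0.243) and -0.17 ± 0.63 for Perm1 (adjusted p = 0.934), in place of -1.03 ± 0.61 for Perm1 with it (adjusted p = 0.395). With cold, HY/HY mice changed in none of the 10 by edgeR, with 2 genes at an unadjusted p under 0.05 and 1, Perm1, called by DESeq2, and 0.181% and 0.0665% of all genes were called higher and lower. The median log2 fold change was 0.34 over the 10 genes and -0.01 over all genes.

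The cold responses of the genotypes were compared directly by subtracting the wild-type response from the HY/HY response. Ppargc1a (-2.19 ± 0.48 on the log2 scale, edgeR adjusted p = 0.0390) and Gabpa (-0.71 ± 0.16, adjusted p = 0.0459) passed as lower, and 2.07% of all genes passed as lower and 0.169% as higher. Ppargc1b (-1.11 ± 0.37, adjusted p = 0.172), Perm1 (-1.98 ± 0.78, adjusted p = 0.252) and Esrra (-0.91 ± 0.30, adjusted p = 0.159) did not pass, so their rise in wild-type mice alone is not shown to differ between genotypes. Without the library that held muscle RNA the difference was -2.43 ± 0.51 for Ppargc1a (adjusted p = 0.0607) and -2.84 ± 0.74 for Perm1 (adjusted p = 0.109). Both calls were lost without most of the single libraries. That of Ppargc1a held only without HY/HY replicate 1 at 30°C, wild-type replicate 1 at 8°C or HY/HY replicate 2 at 8°C, and without any other library its adjusted p was between 0.0594 and 0.116. That of Gabpa held only without the first or the last of these 3, with adjusted p between 0.0559 and 0.126 otherwise. With library totals neither was called (adjusted p = 0.0650 and 0.211), and with no filter Gabpa was not (adjusted p = 0.0647). Ppargc1b was called without wild-type replicate 3 at 30°C (-1.46, adjusted p = 0.0282) and Esrra without HY/HY replicate 1 at 30°C (-1.17, adjusted p = 0.00639).

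The balance of coactivator and corepressor was taken within each library as Ppargc1a counts per Nrip1 count. It was 0.117, 0.0997 and 0.155 in wild-type mice at 30°C and 0.634, 1.17 and 0.624 at 8°C. For the mutant groups it was 0.111, 0.181 and 0.157 at 30°C and 0.116, 0.260 and 0.146 at 8°C. Wild-type libraries at 8°C were thus above all the other libraries, and the mutant groups overlapped. Ppargc1b counts per Nrip1 count were 0.260 ± 0.193 at 30°C and 0.619 ± 0.0915 at 8°C in wild-type mice, without overlap, and were 0.0973 ± 0.0291 and 0.0973 ± 0.0336 in mutant mice (SD, n = 3 each). The exact permutation p was 0.1 for each of these ratios by cold in wild-type mice and by genotype at 8°C, the smallest possible, and 0.8 and 1 by cold in mutant mice. Ppargc1b counts per Ppargc1a count overlapped between the groups in all 4 comparisons.

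**Figure D4:**
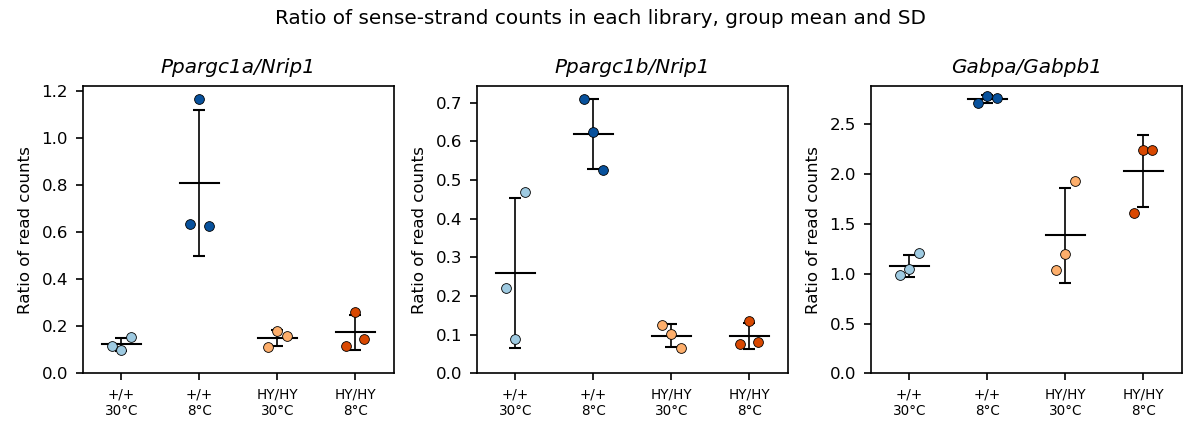
Ratio of sense-strand read counts within each library for Ppargc1a to Nrip1, Ppargc1b to Nrip1 and Gabpa to Gabpb1 (points, with group mean and SD, n = 3). The 3 wild-type libraries at 8°C are above every other library in each panel.

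Levels between genes can be compared only per length. Divided by the longest coding transcript in kilobases (GENCODE vM1), the mean levels in wild-type mice at 30°C ran from Esrra at 26.7 CPM per kb through Pprc1 (6.62), Nrf1 (6.09), Gabpb1 (5.48), Gabpa (4.88), Nrip1 (4.34), Ppargc1b (1.93), Ppargc1a (0.614) and Esrrg (0.529) to Perm1 at 0.232. Apart from Esrra above Pprc1 and Ppargc1b above Ppargc1a, neighbours in this order overlapped. In wild-type mice at 8°C Esrra was at 62.2 and Gabpa at 10.5 CPM per kb, followed by Perm1 (6.15), Ppargc1b (5.51), Nrf1 (5.26), Gabpb1 (4.58), Pprc1 (4.33), Nrip1 (4.22), Ppargc1a (4.08) and Esrrg (0.845). Perm1 moved from the last place to the third. In HY/HY mice at 8°C Nrip1 was second at 7.93 CPM per kb, after Esrra at 33.4, and Ppargc1a and Ppargc1b were both at 1.62. These lengths were not taken from the annotation used for the counts on mm10. The order of the genes, and the equal values of Ppargc1a and Ppargc1b, depend on them.

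The respiratory chain was followed through the OXPHOS level, the mean log2 CPM of 74 nuclear genes for its subunits. It was 7.36 ± 0.278 in wild-type mice at 30°C, 8.82 ± 0.0226 at 8°C, 7.51 ± 0.244 in HY/HY mice at 30°C and 7.86 ± 0.0506 at 8°C (SD, n = 3 each). By cold in wild-type mice 69 of the 74 rose and none fell, with a median log2 fold change of 1.49. Of all genes tested, 10.3% were called higher and 6.93% lower there. In mutant mice edgeR called 0 of the 74 by cold (30 at an unadjusted p under 0.05, 2 higher by DESeq2), with a median of 0.37. It called 0.181% of all genes higher and 0.0665% lower in that comparison. Sdhb, a complex II subunit, was at 164, 171 and 245 CPM in the wild-type libraries at 30°C and at 719, 731 and 718 CPM in those at 8°C. Uqcrc2 of complex III rose by 1.93 ± 0.21, Cox4i1 of complex IV by 1.34 ± 0.19 and Atp5a1 of ATP synthase by 1.49 ± 0.17 on the log2 scale (edgeR adjusted p from 9.55e-05 to 0.000642). Ndufb8 of complex I was not analysed here. At 8°C 64 of the 74 were lower in mutant mice, where 4.42% of all genes tested were called lower and 1.51% higher.

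Across the groups, the 3 wild-type libraries at 8°C formed a cluster of their own in OXPHOS level, so no pooled correlation with the 10 genes is given. Within groups, deviations of each library from its group mean were compared (12 libraries), and the slope of each gene on the deviation in OXPHOS level was tested across all genes. The SD of that level was 0.278 in wild-type and 0.244 in mutant mice at 30°C, but 0.0226 and 0.0506 at 8°C. The slopes and correlations thus rest mainly on the libraries at 30°C and say little of those at 8°C. None of the 10 slopes passed by edgeR, and 1.22% of all genes did. At an unadjusted p under 0.05 were 3 of the 10 slopes and 3556 of all 16540. The nearest were Esrra (slope 1.11 ± 0.38, adjusted p = 0.131), Esrrg (-2.52 ± 0.86, adjusted p = 0.134) and Gabpb1 (-0.82 ± 0.29, adjusted p = 0.138). For Esrra, Pearson's r was 0.71 (exact permutation p = 0.0903) and Spearman's rho 0.59 (p = 0.146), with r = 0.60 without the 2 libraries farthest from the median. For Gabpb1, r was -0.75 (exact permutation p = 0.0494) and rho -0.52 (p = 0.177), with r = -0.45 without those 2 libraries. For Esrrg, r was -0.74 (exact permutation p = 0.188) and rho -0.48 (p = 0.296), with r = -0.28 without them. The 2 libraries are replicate 3 of each genotype at 30°C. For the other 7 genes r lay between -0.15 and 0.48. These 10 p-values are not adjusted over the 10 genes; the adjusted p of the slopes covers all 16540.

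**Figure D5:**
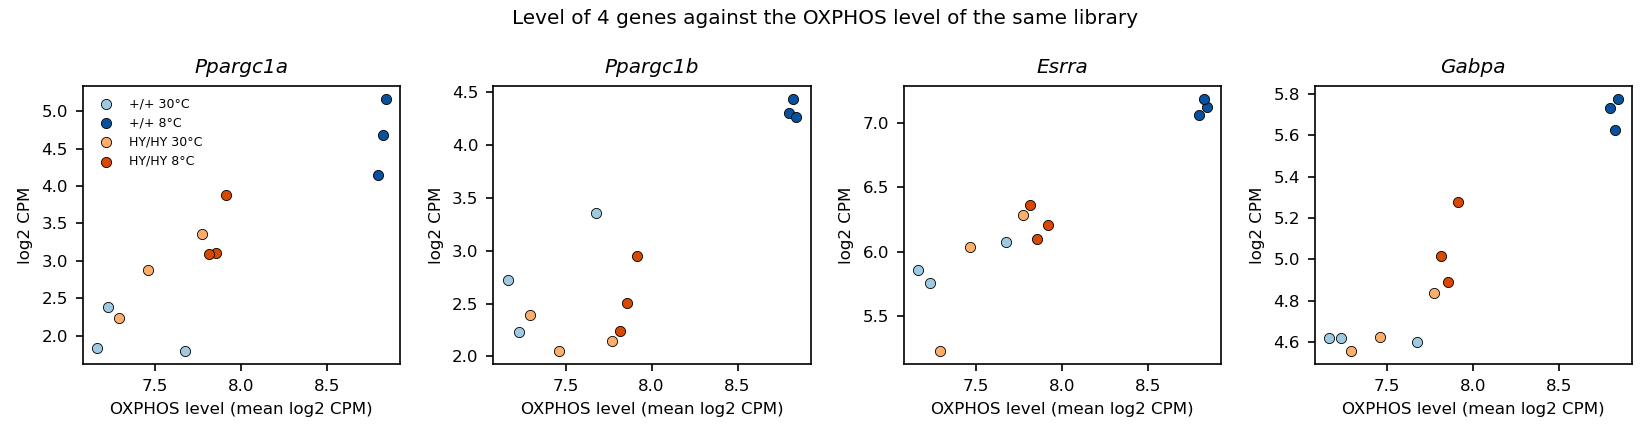
Level of Ppargc1a, Ppargc1b, Esrra and Gabpa (log2 CPM) against the OXPHOS level (mean log2 CPM of 74 subunit genes) in the 12 libraries, coloured by group. The 3 wild-type libraries at 8°C sit apart at OXPHOS levels of 8.80 to 8.84, above the other 9 at 7.16 to 7.91.

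Among the members, the closest pairs in these within-group deviations were Ppargc1a with Gabpa (r = 0.72), Pprc1 with Gabpb1 (r = 0.61) and Ppargc1a with Perm1 (r = 0.58). The most opposed were Esrra with Gabpb1 (r = -0.81) and Pprc1 with Nrip1 (r = -0.71). These are descriptions over 12 libraries, which share scaling within a library. The genes of the whole table most like Ppargc1a in log2 CPM over the 12 libraries, of 12450 with a mean of at least 50 counts, were Mcts1 (r = 0.96), Pigy, Apoo, Mrps34 and Pde4d (r = 0.95 each). Those most like Ppargc1b were Bsg (r = 0.96), Mrpl38, Ndufa7, 2900010M23Rik and Ptdss2 (r = 0.95 each). Both sets follow the high level in wild-type mice at 8°C: Apoo, for a protein of mitochondrial cristae, had a mean of 17.9 CPM at 30°C and 78.4 CPM at 8°C there, and Bsg, for basigin, 452 and 791 CPM.

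Around the 10 genes, 50 further genes of the circuit were tested, listed as binding partners, upstream inducers, cofactors, modifying enzymes and targets. By cold in wild-type mice 9 of the 50 rose and 2 fell, where 10.3% of all genes tested were called higher and 6.93% lower. The median log2 fold change of the 50 was 0.05. Of 12 targets 6 rose. The largest were Pdk4, a kinase that holds back pyruvate oxidation (4.42 ± 0.48), Cycs, cytochrome c (2.45 ± 0.19), and Sod2, the mitochondrial superoxide dismutase (2.07 ± 0.18). Of 13 partners 2 rose and 1 fell: Ppara, a fatty acid receptor (2.99 ± 0.48), Thrb, a thyroid hormone receptor (0.80 ± 0.22), and Esrrb, the third estrogen-related receptor (-2.01 ± 0.64). Of 11 inducers, Prkaca, the catalytic subunit of protein kinase A, rose by 1.04 ± 0.19 and Crtc1, a coactivator of CREB, fell by 0.69 (SE 0.17). Of 7 cofactors and of 7 modifying enzymes edgeR called 0 each, with 3 of each at an unadjusted p under 0.05 and 0 of each by DESeq2.

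In HY/HY mice edgeR called 0 of the 50 by cold, with 9 at an unadjusted p under 0.05 and 2 higher by DESeq2. It called 0.181% of all genes tested higher and 0.0665% lower. At 8°C 4 of the 50 were lower in mutant mice, where 4.42% of all genes tested were called lower. They were Pdk4 (-2.49 ± 0.44), Ppara (-2.13 ± 0.46), Sod2 (-1.04 ± 0.18) and Cycs (-1.02 ± 0.19). The difference between the cold responses passed for 2 of the 50, Cycs (-1.72 ± 0.26, edgeR adjusted p = 0.0113) and Sod2 (-1.50 ± 0.25, adjusted p = 0.0146). Of all genes tested, 2.07% passed there as lower and 0.169% as higher. Between genotypes at 30°C, 0.562% of all genes tested were called higher and 0.441% lower. The 1 gene of the 50 called was Esrrb, at 7.72 ± 3.41 CPM in wild-type and 0.815 ± 0.668 CPM in mutant mice (SD, n = 3 each), a log2 difference of -3.22 ± 0.67. The mammary markers given with Pprc1 differed in the same direction, and their part was not tested.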

How the data were processed

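RNA-seq of scWAT from female mice, in 12 libraries, was used. Per the labels and the study's methods, total RNA was extracted with ISOGEN, made into TruSeq libraries and sequenced as paired 50-base reads on a HiSeq 2500. The authors trimmed reads with fastp, ran STAR against mm10 and deposited raw counts of read pairs for every gene, in 1 column over both strands and 1 column for either strand. The submitters' processing notes also name FastQC and StringTie. Of the entries in each file, 4 name no gene and were left out. They held 55.8% to 63.5% of the total of the sense-strand column, and pairs in them are not assigned to the strand of a gene.

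The sense-strand counts went into edgeR 4.0.16 (R 4.3.3). The filter filterByExpr left 16540 of 55401 genes, which were scaled by TMM and fitted with 1 mean per group and 8 residual degrees of freedom, a fit that shares the spread over all 12 libraries. The 5 comparisons were tested with the quasi-likelihood test, two-sided, with Benjamini-Hochberg adjustment over all genes kept. Differences between the cold responses and slopes were called at an adjusted p under 0.05 alone. Log2 CPM used a prior count of 2. Identifiers were matched to symbols through tables of gene names (183 of 187 listed genes), with Perm1 found under its older name 2310042D19Rik. Coordinates, promoters and their windows are RefSeq's (GRCm38.p6); a window for Ppargc1b and protein sequences were not used here. Motifs were searched as exact letters. The fit was tested on simulated counts.

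The 10 genes and all lists were chosen with earlier results of these data known. Named besides them are, of each kind of circuit gene, up to 3 with the largest change among those called by cold in wild-type mice. Also named are 1 subunit of each of respiratory complexes II to V, the markers Acta1, Ckm, Myh4 and Ucp1, and the edited gene Kdm3a. So are the 5 genes most like Ppargc1a and Ppargc1b each. Of 52 circuit genes 51 were matched. Alternatives were DESeq2 1.42.0, library totals, mitochondrial DNA genes left out, other filters, both strands, only the libraries compared, no fold limit, other forms of the OXPHOS level, each library left out, and the replicate number as a block. Nothing in the labels pairs mice across groups. Deviations from group means of libraries with the same number had correlations over 0.1 in all 3 pairs only between Jmjd1a HY/HY mice at 30°C and 8°C (0.112, 0.199 and 0.303). The sources used here do not state that each library is 1 mouse, so p-values measure only the spread between these libraries, which may be technical in part. Precision is limited by 3 libraries a group and, for Perm1 at 30°C, by 7 to 46 read pairs.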

Additional observations from a re-analysis of the deposited data

Results flagged for a closer look

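The cold responses of the 2 genotypes differed for 2 of the 10 genes by the test of the difference itself (edgeR, Jmjd1a HY/HY response minus wild-type response). For Ppargc1a the difference was -2.19 ± 0.48 on the log2 scale (adjusted p = 0.0390): its level rose 6.59-fold with cold in wild-type mice and was 1.44-fold in Jmjd1a HY/HY mice, where it did not pass. For Gabpa the difference was -0.71 ± 0.16 (adjusted p = 0.0459), from 2.15-fold in wild-type and 1.32-fold in Jmjd1a HY/HY mice, the latter not called. Of all genes tested, 2.07% passed as lower and 0.169% as higher. DESeq2 called both, and library totals called neither (adjusted p = 0.0650 and 0.211). With 1 library left out, the call of Ppargc1a was lost in 9 of 12 fits and that of Gabpa in 10 of 12. Groups of 3 libraries were too small to test single libraries as outliers.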

How the results depend on the processing

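Over 985 recomputed fold changes of the 10 genes, 898 kept direction and side of the threshold, 42 lost their call, 14 gained one and 31 turned sign; of 170 slopes, 153 kept both, 1 gained a call and 16 turned. By cold in wild-type mice the count of genes called was 6 and stayed at 5 to 7. In HY/HY mice by cold it went from 0 to 1 (Perm1) with DESeq2, with no filter and with the replicate block, and was 0 to 1 with 1 library left out. At 8°C it went from 5 to between 2 and 6 with 1 library left out. With library totals at 8°C Gabpa lost its call (-0.50) while Nrip1 gained one (1.05). At 30°C the count went from 0 to 1 with DESeq2. In the comparison of the cold responses it went from 2 to 0 with library totals and 1 with no filter, and to between 0 and 3 with 1 library left out. For the slope it was 0 to 1 with 1 library left out (Esrrg without HY/HY replicate 1 at 30°C). The replicate block left the counts at 6 by cold in wild-type mice, 5 at 8°C, 0 at 30°C, 2 for the difference and 0 for the slope. Perm1 could not be fitted with at least 10 counts asked of every library, since 2 of its groups hold fewer.

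Values that turned sign were all of results that had not passed. With library totals they were Nrf1 at 8°C (0.14), Esrra (-0.084) and Gabpa (-0.015) at 30°C, and the slopes of Pprc1 (0.16), Perm1 (1.87) and Nrf1 (0.059). Nrf1 at 8°C was also 0.0013 without genes of mitochondrial DNA, 0.0050 with no filter, 0.00021 with both strands and 0.012 with only the libraries compared. The replicate block gave -0.022 for Esrra at 30°C and slopes of 0.50 for Pprc1 and 0.29 for Nrf1. With transcripts of mitochondrial DNA as the OXPHOS level, slopes were -0.11 for Ppargc1b, 0.97 for Perm1 and 0.53 for Nrip1. With 1 library left out, the ranges by cold were -0.28 to 0.38 for Nrip1 in wild-type mice and, in HY/HY mice, -0.27 to 0.030 for Pprc1, -0.0041 to 0.69 for Esrrg and -0.19 to 0.0031 for Nrf1. Those between genotypes were -0.13 to 0.069 for Nrf1 at 8°C and, at 30°C, -0.21 to 0.27 for Esrra, -0.39 to 0.54 for Esrrg and -0.016 to 0.12 for Gabpa. Those of the difference between the cold responses were -0.91 to 0.019 for Esrrg, -0.11 to 0.18 for Gabpb1 and -0.022 to 0.66 for Nrip1. Slopes ranged from -0.28 to 1.55 for Ppargc1b, -1.09 to 0.47 for Pprc1, -1.55 to 2.42 for Perm1, -0.31 to 0.17 for Nrf1 and -1.52 to 1.55 for Nrip1. The cause was not tested.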
